A study of Mus musculus with 14 samples.

Results

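H3K27ac sites made mostly of repeat sequence were examined in immortalised mouse embryo fibroblasts (iMEF). A site was counted as mostly repeat when at least 80% of its bases are in lower case in the GRCm38 reference sequence (mm10 positions). Lower case marks repeats there, by a program that is not given in the sources used here. On chromosomes 1 to 19 and X, 3385 of 122171 sites met this rule, which is 2.77% (the list held 122228 sites in all). The values that chose the members, their masked shares, had a median of 90.7% and quartiles of 85 and 97%, and 571 members were masked at every base. The other 118786 sites had a median masked share of 10.6%.

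The cells carried floxed Ash2l alleles with exon 4 deleted and lived on a lentiviral, N-terminally FKBP12F36V-tagged human ASH2L, which belongs to the COMPASS/KMT2 methyltransferases for histone H3 lysine 4. All libraries came from clone NG3, so differences between clones were not sampled. The 12 chromatin immunoprecipitation (ChIP-seq) libraries against H3K27ac (histone H3 acetylated at lysine 27, found at promoters and enhancers in use) comprised 2 of control cells without dTAG and 2 each after 30 min, 2 h, 4 h, 8 h and 16 h with dTAG-13, which leads to degradation of the tagged protein. There were 2 input libraries, 1 of control cells and 1 of treated cells. The deposited list joins the sites over these libraries and gives only their positions, so it holds no value per library, no read depth at a site and no replicate error, and no change over time was analysed here.

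Much of a mammalian genome derives from transposable elements, chiefly long and short interspersed elements (LINEs and SINEs) and elements with long terminal repeats. Most copies are old and silenced by DNA methylation and methylation of histone H3 at lysine 9, but some carry promoters or binding sites for transcription factors and can act as promoters or enhancers. A sequencing read from a repeat can be placed only where the copy differs from all others, which bears on every count of such sites.

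To see which repeats these were, the members were aligned to each other. Another member aligned over at least 50% of the longer of the pair for 3083 of 3385 members (91.1%). Starting from the member with most similar members, here called the hub, 2710 members (80.1%) fell into 60 groups of at least 5, and the 5 largest groups held 1607 (47.5%). Stretches of these 5 groups are shown because they are the largest groups, and because a CCAAT box (CCAAT, or ATTGG on the other strand) is frequent in some of them. Capitals mark CCAAT or ATTGG. Each line is on the plus strand of mm10, and the second line of a pair is the part of the widest member outside exons that aligned to the hub.
Group 1 hub, chr16:64222893-64223192: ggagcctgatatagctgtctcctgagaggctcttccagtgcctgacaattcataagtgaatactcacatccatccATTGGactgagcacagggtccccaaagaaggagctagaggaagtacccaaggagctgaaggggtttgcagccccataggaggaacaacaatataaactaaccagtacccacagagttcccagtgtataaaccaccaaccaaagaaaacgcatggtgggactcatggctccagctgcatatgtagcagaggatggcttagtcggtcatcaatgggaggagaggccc
Group 1 widest member, chr19:28406686-28406985: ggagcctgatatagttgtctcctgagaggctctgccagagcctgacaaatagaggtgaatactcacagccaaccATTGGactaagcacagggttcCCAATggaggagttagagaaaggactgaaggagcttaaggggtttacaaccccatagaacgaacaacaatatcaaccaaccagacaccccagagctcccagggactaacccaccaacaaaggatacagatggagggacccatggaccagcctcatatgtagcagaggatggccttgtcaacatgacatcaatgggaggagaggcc
Group 2 widest member, chr15:103219603-103219784: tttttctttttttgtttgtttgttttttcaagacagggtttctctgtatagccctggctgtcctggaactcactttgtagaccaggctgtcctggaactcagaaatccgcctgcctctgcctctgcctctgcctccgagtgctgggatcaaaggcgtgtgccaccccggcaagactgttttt
Group 3 hub, chr13:75383387-75383686: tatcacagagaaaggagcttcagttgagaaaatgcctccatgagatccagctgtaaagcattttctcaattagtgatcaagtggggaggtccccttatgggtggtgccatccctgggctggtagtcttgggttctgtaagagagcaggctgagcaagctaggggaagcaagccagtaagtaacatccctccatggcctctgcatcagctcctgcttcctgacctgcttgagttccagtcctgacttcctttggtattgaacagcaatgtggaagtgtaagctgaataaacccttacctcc
Group 3 widest member, chr3:50003263-50003562: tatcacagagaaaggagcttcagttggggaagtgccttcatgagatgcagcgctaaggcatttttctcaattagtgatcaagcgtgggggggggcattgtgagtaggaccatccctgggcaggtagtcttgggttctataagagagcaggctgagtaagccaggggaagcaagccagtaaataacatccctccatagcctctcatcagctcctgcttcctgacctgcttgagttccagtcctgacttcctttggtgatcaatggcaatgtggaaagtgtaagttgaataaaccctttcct
Group 4 widest member, chr16:56308206-56308427: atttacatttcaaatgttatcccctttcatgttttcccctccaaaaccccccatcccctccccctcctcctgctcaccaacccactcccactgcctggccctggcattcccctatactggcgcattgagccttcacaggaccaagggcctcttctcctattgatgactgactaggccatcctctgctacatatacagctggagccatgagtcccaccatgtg
Group 5 hub, chr5:98952999-98953198: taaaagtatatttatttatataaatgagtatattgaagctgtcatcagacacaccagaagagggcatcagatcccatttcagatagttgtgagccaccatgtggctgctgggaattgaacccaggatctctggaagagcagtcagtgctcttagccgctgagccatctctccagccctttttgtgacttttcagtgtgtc
Group 5 widest member, chr10:108236058-108236235: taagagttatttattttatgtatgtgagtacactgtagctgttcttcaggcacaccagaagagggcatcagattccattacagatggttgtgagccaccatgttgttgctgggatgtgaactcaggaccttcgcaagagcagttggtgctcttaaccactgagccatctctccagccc

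The group 1 hub lay 256067 bp from the nearest transcription start site (TSS), that of Csnka2ip, and the widest member of the group lay 80825 bp from a TSS of Glis3. The group 2 stretch was 4397 bp from a TSS of Cbx5, which encodes the heterochromatin protein HP1 alpha. The group 3 hub was 95842 bp from a TSS of Gm48234, and its widest member 1309 bp from a TSS of Gm37854. The group 4 stretch was 29137 bp from a TSS of Gm21050. The group 5 hub was 9265 bp from a TSS of Prkg2, and its widest member 13507 bp from a TSS of Ppp1r12a. The widest members matched their hubs at 80.3% of aligned bases in group 1, 82.0% in group 2, 88.8% in group 3, 87.7% in group 4 and 84.4% in group 5.

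Group 1 held 714 members, or 21.1% of all. Its members had a median width of 395.5 bp and matched the hub at a median of 77.6% of aligned bases. A CCAAT box was present in the middle 200 bp of 61.2% of them. It was present in 34.4% of all members, 20.9% of other sites and 38.5% of mostly repeat genome windows of 200 bp. Of the group 1 members, 48.9% were solitary, meaning that no other site lay less than 1 kb away, compared to 38.6% of all members. Group 4 (199 members) and the smaller groups 8 (113 members) and 10 (34 members) were similar to group 1 in sequence. The hubs of groups 1 and 4 aligned over 147 bases at 93.9% identity, those of groups 1 and 8 over 171 bases at 81.3%, and those of groups 1 and 10 over 135 bases at 80.7%. A CCAAT box was held by 43.2% of members in group 4, 80.5% in group 8 and 79.4% in group 10. Group 2 (340 members) was different in form, with narrow members of a median of 220 bp. It held 13 of the 16 members whose middle 200 bp aligned to 7SL RNA, the RNA of the signal recognition particle from which the rodent B1 SINE family descends. Such alignments were rare, at 0.473% of all members and 0.188% of the windows, and most of the 340 members of group 2 had none. Group 5 (150 members) was narrow too, with a median of 225 bp. The share of members at TSSs was higher in groups 2 and 5 than in group 1, a difference that was not tested. In group 2, 12.4% of members lay within 1 kb of a TSS, and in group 5 it was 10.0%, compared to 2.38% in group 1, and only 22.4% and 18.7% were solitary. Group 3 (204 members) had a median width of 307.5 bp, a median identity to its hub of 87.0% and few CCAAT boxes (12.3%). No repeat names were assigned, since no annotation of repeat families was used here.

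The same hubs were then aligned to 20775 mostly repeat windows of 200 bp that were taken every 20 kb from the genome and lay at least 1 kb from any site. At least 100 bases of the middle 200 bp aligned to 1 of the hubs of the 10 largest groups in 70.2% of members and in 21.7% of these windows. Group 1's hub was matched by 29.8% of members and 8.76% of windows, the hub of group 2 by 12.5 and 4.01%, and the hub of group 5 by 5.58 and 2.45%. The widest gap in proportion was at the hub of group 7, with 5.02% of members and 0.626% of windows. The hubs were picked among the members, which by itself favours the members in these counts, so they are descriptions without a test. Restricted to members and windows with at least 90% unique 75-mers (a 75-base word found once in the genome), the shares for any hub were 69.3% and 27.9%, for the hub of group 5 they were 5.04% and 3.84%, and for the hub of group 7 they were 5.68% and 1.26%.

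**Figure D1:**
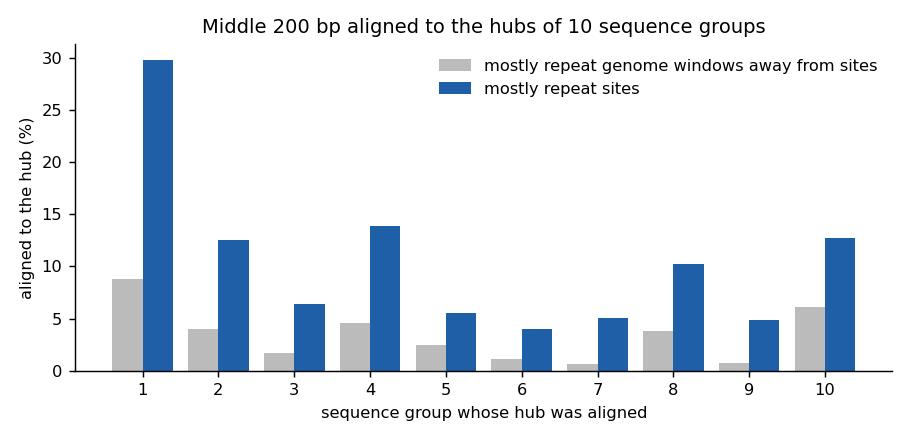
Share of mostly repeat H3K27ac sites (blue, n = 3385) and of mostly repeat genome windows at least 1 kb from any site (grey, n = 20775) whose middle 200 bp aligned to the hub of each of the 10 largest sequence groups, in percent. The blue bar is the higher one at every hub, from 29.8% against 8.76% at group 1 to 12.7% against 6.11% at group 10.

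Mostly repeat sites were far fewer than random placement of the sites would give. For each site, all windows of its width on its chromosome were examined, with starts every 100 bp and outside assembly gaps, and the share of windows that met the rule was summed over sites. This gave 15749 mostly repeat sites, or 12.9% of the list, and the 3385 observed were 0.215 times this number. Every chromosome had fewer than expected. The log2 ratio of observed to expected was -2.24 ± 0.27 (mean ± SD over the n = 20 chromosomes; exact sign-flip permutation test, two-sided, p = 1.91e-06, which is the lowest value this design can give, Benjamini-Hochberg adjusted p = 2.45e-06 over 9 tests). Chromosomes are not replicate libraries. This p-value is reached whenever all 20 chromosomes differ in the same direction, whatever their spread. The ratio was lowest on chromosome 7, with 131 sites compared to 1007 expected (0.130), and highest on chromosome 10, with 267 compared to 956 (0.279). The X chromosome carried 98 mostly repeat sites, compared to 534 expected. With other rules the overall ratio was 0.401 at 50% or more of bases masked and 0.0717 when every base had to be masked.

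**Figure D2:**
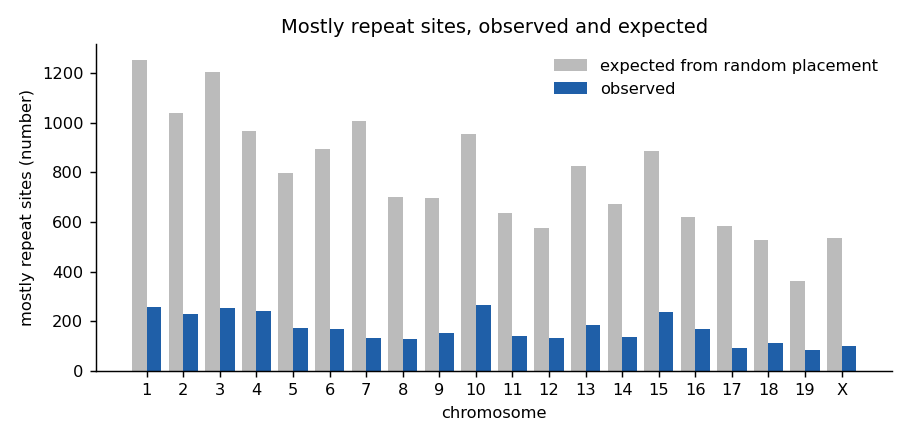
Number of mostly repeat H3K27ac sites on each chromosome, observed (blue) and expected when each site is placed evenly over its chromosome (grey). The observed number was below the expected one on all 20 chromosomes, for example 131 against 1007 on chromosome 7.

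For part of the genome's repeat sequence, a read of 75 bases has more than 1 possible placement, and this moved with the result. Unique 75-mers made up 94.7% of the 75-mers of an average member, but 63.2% in the mostly repeat windows of the genome. At least 90% of the 75-mers were unique in 2819 members (83.3%, 95% Wilson interval 82.0 to 84.5%) and in 46.8% of the windows (46.1 to 47.5%). For members of this class, the expected number was scaled on each chromosome by the share of the 200-bp windows in the class. The number observed was then 0.378 times the expected one, 2819 compared to 7467. It was again below expectation on all 20 chromosomes (exact sign-flip permutation p = 1.91e-06). Unique windows of other widths, or nearer to sites, were not counted, so this expected number is approximate. Bases in lower case made up 34.3% of the chromosomes outside gaps and 16.8% of all bases in H3K27ac sites. Another masking of the genome could change which sites are members, their number and its ratio to expectation, and none was used here.

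Compared to other sites, members also had fewer unique 75-mers. The rule chose repeat sequence and so favours this direction by itself, and the test below gives no separate support. The mean share was 94.7% ± 11.9 (SD over 3385 members) and 99.6% ± 3.12 in other sites, a difference of -4.90 ± 1.28 percentage points per chromosome (mean ± SD, n = 20; exact sign-flip permutation p = 1.91e-06, adjusted p = 2.45e-06). Every 75-mer was unique in 64.6% of members and in 94.7% of other sites. Below 50% unique 75-mers there were 56 members (1.65%), and no member was without any. With 36-mers the mean share was 65.6% in members and 97.8% in other sites.

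Mostly repeat sites were narrow. The median was 281 bp wide (quartiles 220 and 396 bp), compared to 407 bp (267 and 737 bp) for other sites, and it was lower on all 20 chromosomes (log2 ratio -0.53 ± 0.15, mean ± SD; exact sign-flip permutation p = 1.91e-06, adjusted p = 2.45e-06). A width of 200 bp, the narrowest in the list, was found in 381 members (11.3%) and in 5.62% of other sites. At least 1000 bp were reached by 20 members (0.591%) and by 16.4% of other sites. A narrow window reaches 80% repeat more readily than a wide one, and this entered the expectation. Under random placement the expected members would have had a median width of 353 bp, so the observed members were narrower than that too. After sites less than 1 kb apart were merged and the rule was applied anew, gaps included, the medians were 276 and 924 bp.

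The ratio of observed to expected number was lower among wide sites. Among the sites of 200 to 212 bp, 679 members were observed and 1960 expected, a ratio of 0.346. The ratio was 0.246 at 337 to 401 bp and 0.102 at 627 to 854 bp. At 1326 bp and wider there were 2 members compared to 993 expected. Long sites that were mostly repeat were almost absent from the list.

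**Figure D3:**
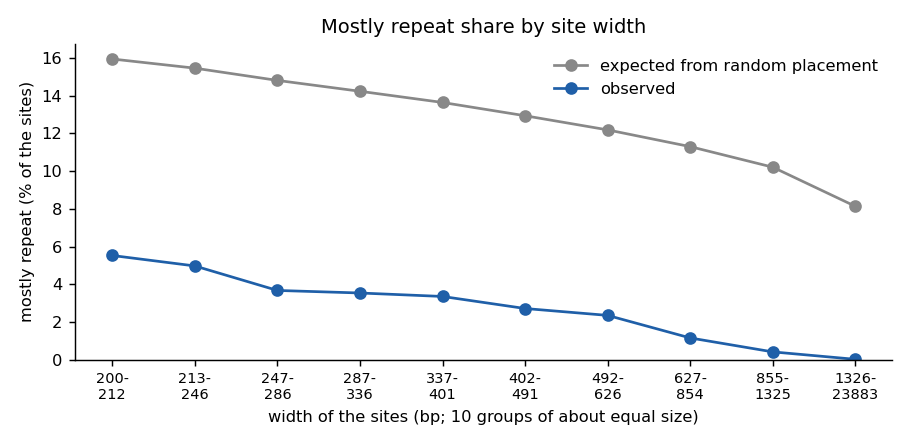
Share of mostly repeat sites among H3K27ac sites in 10 width groups of about equal size (blue), and the share expected when sites of the same widths are placed evenly (grey), in percent. The observed share fell from 5.52% in the narrowest group to 0.0164% in the widest.

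The 10 widest members measured 1074 to 1654 bp. The widest, at chr1:45357823-45359476, was 83.3% masked, lay 18692 bp from a TSS of Col3a1, which encodes the fibrillar collagen III of fibroblasts, and all of its 75-mers were unique. A pair of others, of 1143 and 1074 bp, were on chromosome 1 as well and had Col5a2, encoding a chain of collagen V, as the nearest protein-coding gene, 24273 and 103697 bp away. The member of 1650 bp at chr5:49755967-49757616 was 93.2% masked, with 75.2% unique 75-mers. A member of 1088 bp at chr4:88529396-88530483 lay 7166 bp from the TSS of Ifnb1, the gene of interferon beta, and all its 75-mers were unique. None of the 10 overlapped an exon.

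The members were not rich in GC as a group. Mean GC content was 48.6% ± 4.10 (SD), compared to 49.6% ± 5.27 in other sites, and the difference was -1.05 ± 0.91 percentage points per chromosome (mean ± SD, n = 20; lower on 18 of 20; exact sign-flip permutation p = 7.06e-05, adjusted p = 7.06e-05). The medians were close, at 48.9% and 48.8%. The difference did not hold against other sites weighted to the members' widths (-0.23 percentage points, p = 0.115 by the same exact test). Mostly repeat windows of the members' widths had a mean GC content of 41.9%, which was below both kinds of sites. CpG dinucleotides were scarcer in members, with a median of 0.50 per 100 bp compared to 1.20. A CpG island, called from unmasked bases only, was overlapped by 1 member and by 9.72% of other sites. With islands called without regard to the masking, these were 6 members and 10.7%.

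Motif letters were searched on both strands in the middle 200 bp of each site. The AP-1 motif TGANTCA, bound by FOS and JUN proteins, was present in 130 members (3.84%, interval 3.24 to 4.54%) and in 8.22% of other sites, compared to 8.10% of all sites. The share was lower in members on all 20 chromosomes (-4.44 ± 1.24 percentage points, mean ± SD; exact sign-flip permutation p = 1.91e-06, adjusted p = 2.45e-06). Over whole sites the shares were 6.29 and 21.6%, and from 50% of masked bases the difference was -1.85 percentage points. In the mostly repeat genome windows the share was 3.02%. The CCAAT box was present in 34.4% of members (interval 32.8 to 35.97%), in 20.9% of other sites and in 38.5% of the windows. The GC box GGGCGG was found in 2.92% of members, 7.27% of other sites and 1.65% of windows, and the ETS motif CCGGAA in 1.12, 3.76 and 1.54%. For the TEAD motif GGAATG the shares were 13.1, 12.3 and 10.4%, and for the RUNX motif TGTGGT 12.1, 15.8 and 13.2%. The letters TGACGTCA of the cAMP response element were in 0 of 3385 members, which allows a share of up to 0.0886% (3 counts of 3385), and in 0.201% of other sites. These motifs other than AP-1 were not tested.

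Short tandem repeats were a small part of the members. Exact tandem arrays of 1 to 6 bp units made up more than 50% of only 5 members, and their mean share was 1.54% in members and 0.544% in other sites.

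Mostly repeat sites lay away from promoters. The middle of 166 members, or 4.90% (interval 4.23 to 5.68%), fell within 1 kb of a TSS, compared to 18.7% of all sites and 19.1% of other sites. The share was lower on all 20 chromosomes (-14.5 ± 4.14 percentage points, mean ± SD; exact sign-flip permutation p = 1.91e-06, adjusted p = 2.45e-06). Against other sites weighted to the same widths, which had 12.8%, the difference was -7.92 percentage points. It was thus smaller but again present on all 20 chromosomes. The windows that met the repeat rule, taken at the members' widths, were within 1 kb of a TSS in 1.99% of cases. Members were therefore more often near a TSS than repeat sequence in general and less often than other sites. The first of these comparisons was not tested.

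The median distance to the nearest TSS was 15109 bp for members (quartiles 5164 and 40157 bp) and 8302.5 bp for other sites (1881 and 23189 bp). The log2 ratio was 0.85 ± 0.34 and positive on all 20 chromosomes (exact sign-flip permutation p = 1.91e-06, adjusted p = 2.45e-06). To a TSS of a protein-coding transcript, the medians were 46528 and 22999 bp. The share of sites that were mostly repeat increased with distance. It was 0.725% within 1 kb, 2.62% at 1 to 3 kb, 2.99% at 10 to 30 kb and 6.15% beyond 100 kb, where 234 members were found. Even there, the number was 0.450 times that expected from the widths of the sites and their chromosomes.

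**Figure D4:**
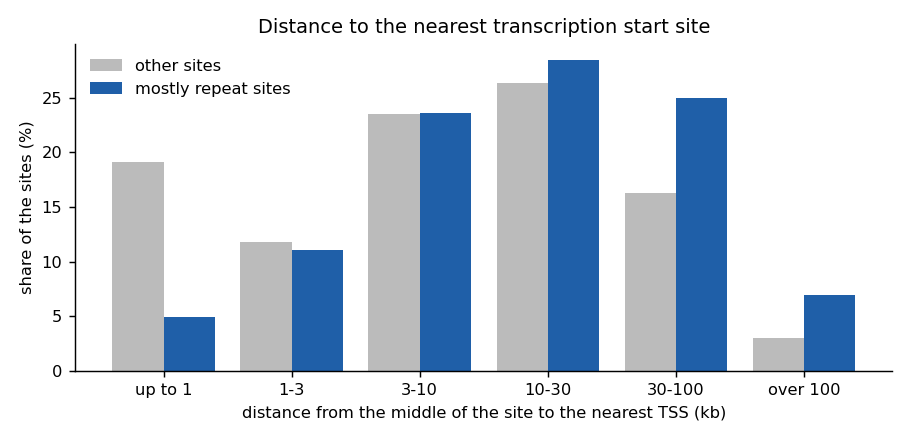
Distribution of mostly repeat H3K27ac sites (blue, n = 3385) and other sites (grey, n = 118786) over 6 classes of distance to the nearest TSS, in percent of each set. The first class held 4.90% of mostly repeat and 19.1% of other sites, and the class of 30 to 100 kb held 24.96% and 16.3%.

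Intergenic sites, outside all annotated genes and more than 3 kb from a TSS, made up 1435 members (42.4%, interval 40.7 to 44.1%), compared to 25.6% of all sites and 25.1% of other sites. This difference was present on all 20 chromosomes (16.5 ± 5.32 percentage points, mean ± SD; exact sign-flip permutation p = 1.91e-06, adjusted p = 2.45e-06). All windows of the members' widths that met the repeat rule were intergenic in 65.7% of cases. Inside a gene and more than 1 kb from a TSS were 48.6% of members and 53.3% of other sites. The middle of 71 members (2.10%) was in an exon, compared to 11.4% of other sites, and coding sequence was touched by 3 members.

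Members stood alone more often than other sites. No other site lay less than 1 kb away from 1308 members (38.6%, interval 37.0 to 40.3%), compared to 27.8% of all sites and 27.5% of other sites. The share was higher on 19 of 20 chromosomes (10.5 ± 6.01 percentage points, mean ± SD; exact sign-flip permutation p = 3.81e-06, adjusted p = 4.29e-06). On chromosome 11 it was 26.2% in members and 27.2% in other sites, and on the X chromosome it was 54.1% and 35.4%. Against other sites weighted to the members' widths the difference was 7.26 percentage points and was positive on 16 of 20 chromosomes. In the narrowest width group, 45.2% of members and 43.7% of others were solitary, whereas at 337 to 401 bp it was 40.4 and 25.8%. At 855 to 1325 bp the order was the other way, with 18% of 50 members and 22.2% of others, and of the 2 members of 1326 bp or wider 0 were solitary, compared to 24.5% of others. When a site counted as mostly repeat from 50% of masked bases, the difference was 2.90 percentage points (positive on 15 of 20 chromosomes; exact sign-flip permutation p = 0.0115).

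Most members were nevertheless close to another site. Of all windows of the members' widths that met the repeat rule, 97.3% had no H3K27ac site over them or less than 1 kb away. The median gap from a member to the nearest site was 577 bp, compared to 315 bp for other sites. Of 2077 members with a neighbour at less than 1 kb, the nearest neighbour was itself a member in 210 (10.1%, interval 8.89 to 11.5%). For other sites with such a neighbour it was a member in 1.98% (1.89 to 2.08%).

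**Figure D5:**
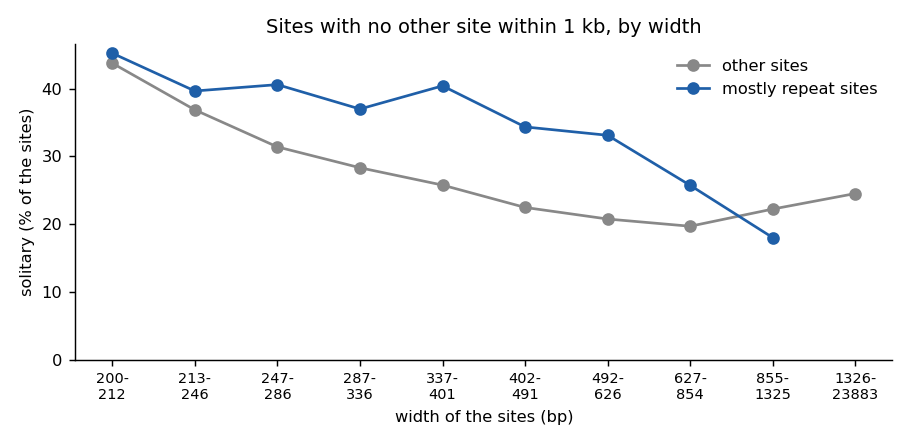
Share of solitary sites, with no other site less than 1 kb away, among mostly repeat (blue) and other (grey) H3K27ac sites in 10 width groups, in percent. The widest group held 2 mostly repeat sites and is not drawn for them. In the narrowest group the values were 45.2 and 43.7%, and at 337 to 401 bp 40.4 and 25.8%.

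Rows of neighbouring members were short. With gaps under 1 kb and no other site between, 3145 members were single, 111 pairs were found and 6 rows held 3 members. The longest of these spanned 3672 bp at chr5:49755033-49758704, at least 230381 bp from a TSS of Kcnip4, which encodes a potassium channel subunit. Another spanned 2012 bp at chr17:21475674-21477685, 11412 bp from a TSS of the zinc finger gene Zfp53. On average only 27.01% of the 75-mers in this row were unique, so that reads there could be shared with other copies. The remaining named rows were near Cited2, Nalcn and Ergic2, at distances of 1218919, 182097 and 59266 bp, with 73.1, 97.5 and 87.8% unique 75-mers.

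By the nearest protein-coding TSS, the members belonged to 2095 of the 14385 genes with any site (14.6%), and 1463 of these genes had 1 member. Cited2, which encodes a transcriptional coregulator, had the most, with 26 of its 193 sites, at 373983 bp or farther. Trps1, encoding a GATA-type repressor, had 19 of 129. The collagen gene Col12a1 had 18 of 190 sites, Adamts5, which encodes a protease of the cartilage proteoglycan aggrecan, 17 of 134, Col5a2 16 of 100 and the membrane-bound matrix metalloproteinase gene Mmp16 13 of 37. Pappa had 16 of 150, Cdh18 15 of 87, Pde4d 14 of 262 and Gulp1 13 of 64. Of all sites assigned to genes in this way, 2.77% were members, and these 10 genes were picked for their counts. None of these 10 genes had a member within 1 kb of its TSS. The median distance of their members ranged from 20881 bp at Gulp1 to 1149820 bp at Cited2, and it was 257272 bp at Col12a1. The assignment is thus by nearest TSS only, and no link to these genes was tested. Among the 3318 genes with at least 10 sites, the highest share was 45.5% (5 of 11 sites) at Gm21293. It was 37.5% at Mgat4c and Pabpc4l, each with 9 of 24 sites, and at Akr1e1, with 6 of 16. Ncam2 and Tmprss15 each had 5 of 14 (35.7%), Rtl3 5 of 15 (33.3%), Eif3e 4 of 12 (33.3%) and Wls 7 of 22 (31.8%).

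The lists of genes examined held between 1.15 and 5.33% members, compared to 2.77% of all sites, and none was tested. Genes of fibroblast matrix and collagen had 72 members among 1970 sites (3.65%), of which Col12a1, Col5a2 and Col3a1, with 12, accounted for most. The shares at these genes were 9.47, 16 and 12.6%, so the share of the list rested largely on them. Members of Col5a2 and Col3a1 lay near each other on chromosome 1. Of the 41 genes of this list with a site, 18 had a member. Among the others of these 18, shares ranged from 0.699% at Cald1 (1 of 143 sites) to 11.1% at Col4a2 and Vim (1 of 9 sites each). Genes for the silencing of retroelements and heterochromatin had 7 of 176 (3.98%), and 5 of these were at Cbx5, 3250 to 8176 bp from its TSS, with the others at Ehmt1 and Resf1. Zinc finger genes, many of which encode KRAB proteins that bind retroelements, had 31 of 1625 (1.91%). Interferon response genes had 4 of 75 (5.33%), 1 each at Ifi35, Ifnb1, Mx1 and Trim25. AP-1 and immediate early genes had 10 of 869 (1.15%), at Myc, Klf6 and Fosl2, and genes of COMPASS/KMT2 complexes had 1 of 56, at Ncoa6. The loci that the study examined had 5 of 106 (4.72%), 3 of them at Rspo2, 1 at Il7 and 1 at Nrf1.

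Within 1 kb of a TSS of a protein-coding transcript there were 73 members, at 72 genes. The widest of these, of 505 bp and 91.1% masked, was inside E4f1, which encodes a transcription factor, 425 bp from the TSS. The next was a site of 465 bp at Hist1h2bh, a histone H2B gene, whose exon it overlapped, with 84.9% unique 75-mers. The others of the 10 widest were at Bmpr1a, a receptor for bone morphogenetic proteins (441 bp wide), Nde1 (434 bp), Pola2, a subunit of DNA polymerase alpha (429 bp), Hdgfl2 (423 bp), Abi1 (408 bp), Col4a1 (390 bp), Ensa (363 bp) and Rpl23a, a protein of the large ribosomal subunit (356 bp). Their GC content ranged from 43.0% at Rpl23a to 51.8% at Col4a1. In each case another site lay within 1 kb, at 76 to 799 bp.

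Of the listed genes, Col4a1, Col6a3, Ifi35 and the zinc finger gene Zfp106 had a member within 1 kb of a protein-coding TSS. The member at Col4a1, which encodes a chain of the collagen IV of basement membranes, was intronic, 379 bp from the TSS, masked at every base and part of group 1, and all of its 75-mers were unique. The member at Ifi35, an interferon-induced gene, was 705 bp from the TSS and belonged to group 5. The member at Col6a3 lay 983 bp from the TSS and that at Zfp106, with 73.8% unique 75-mers, 534 bp. The first 300 bases of the Col4a1 site and the whole Ifi35 site are shown as copies of groups 1 and 5 next to a promoter, with CCAAT or ATTGG in capitals.
Col4a1, chr8:11210257-11210556: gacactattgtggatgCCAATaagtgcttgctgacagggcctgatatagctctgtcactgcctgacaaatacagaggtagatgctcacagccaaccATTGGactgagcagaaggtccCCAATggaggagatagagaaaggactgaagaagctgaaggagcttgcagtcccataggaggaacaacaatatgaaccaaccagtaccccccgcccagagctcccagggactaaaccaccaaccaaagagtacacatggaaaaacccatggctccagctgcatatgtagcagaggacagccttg
Ifi35, chr11:101447591-101447812: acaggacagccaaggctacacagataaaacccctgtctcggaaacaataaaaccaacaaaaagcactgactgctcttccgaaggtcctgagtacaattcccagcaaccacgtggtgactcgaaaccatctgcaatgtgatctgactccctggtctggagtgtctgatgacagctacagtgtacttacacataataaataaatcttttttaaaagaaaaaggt

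The 3 members nearest to the threshold were masked at 80% of their bases and measured 505, 450 and 450 bp, at 3359 bp from a TSS of Gm6373, 4494 bp from one of Fam162a and 100199 bp from one of Gm26235. The 3 sites just outside were masked at 79.96, 79.94 and 79.91%, measured 454, 334 and 234 bp, and were nearest to Pdlim1, Mast4 and Gm45366.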

How the data were processed

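Per the methods and labels, the authors obtained 75-cycle single-end reads, used Trim Galore for trimming and BWA for alignment to mm10, and removed unusable reads with SAMtools following ENCODE recommendations, with code adapted from the nf-core ChIP-seq pipeline. Picard served to combine replicates and MACS2 to call narrow peaks. Versions, thresholds, the exact filter on reads with several placements and the way sites were joined are not given in the sources used here. The deposited file holds positions in bp only (start and end of each of 122228 sites), with 0 columns of values per sample. The 57 sites on 15 other sequences were left out. Members were found from lower-case bases of GRCm38.p6. The program that set the lower case is not given in the sources used here. TSSs and genes were from GENCODE M21, and every transcript start was used. CpG islands were at least 200 bp with a GC content of at least 50% and observed over expected CpG of at least 0.6. 75-mers were counted on both strands of the assembly. Members were aligned with blastn 2.17.0 (E-value at most 1e-10), and groups, whose rule was set after the alignments were seen, were taken from the hub downwards. Each of 9 measures was compared per chromosome, and the 20 differences entered an exact sign-flip permutation test (two-sided). Intervals are 95% Wilson intervals and cover counting error only. Computations used Python 3.11.15, numpy 2.4.6, pandas 2.3.3, scipy 1.17.1, numba 0.67.0 and statsmodels 0.14.6, and scripts were tested on simulated data.

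Named sites were the 10 widest members, the 10 widest near a protein-coding TSS, the 5 longest rows, the 3 sites nearest to the threshold on either side and the widest member of each of the 5 largest groups. For the last, members on chromosome 18 or touching an exon were passed over. The hub was shown in addition unless it lay on chromosome 18 or touched an untranslated region, which left the hubs of groups 1, 3 and 5. Named genes were the 10 with most members, the 10 with the highest share among those with at least 10 sites, and listed genes. The members and lists were chosen with earlier results of these data known. Zinc finger genes were taken by symbol (Zfp, Zkscan or Zscan and a number), which includes some that encode no KRAB domain.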

Additional observations from a re-analysis of the deposited data

Results flagged for a closer look

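The list also held 57 sites on 15 sequences outside chromosomes 1 to 19 and X, which no comparison used. Whether they are made mostly of repeat sequence was not analysed here.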

How the results depend on the processing

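No paired analysis was possible because sites carry no value per sample. Of 72 alternatives planned and 1 chosen after seeing the data, none changed the direction of a result, and 3 lost significance, all for GC content. The difference in GC content was -0.301 percentage points when every base had to be masked (exact sign-flip permutation p = 0.338), -0.105 with sites less than 1 kb apart merged (p = 0.508) and -0.23 with other sites weighted to the members' widths (p = 0.115). The ratio of observed to expected number was 0.401 with at least 50% of bases masked, 0.145 with at least 90% and 0.0717 with every base masked. It was 0.169 without the narrowest 25% of sites, 0.201 with merged sites, 0.216 on autosomes and 0.215 with window starts every 50 bp. Outside 1 kb around TSSs it was 0.236. For members with at least 90% unique 75-mers, against the expectation scaled to that class, it was 0.378, the alternative chosen later. The difference in solitary share was 2.90 percentage points with at least 50% masked (exact sign-flip permutation p = 0.0115) and otherwise between 6.49 and 15.0. Merging lowered the width ratio from 0.690 to 0.299. The rule was applied anew to the merged regions, gaps included, and 1376 of 61769 met it, so this ratio describes other regions than the main one. The median of members went from 281 to 276 bp and that of others from 407 to 924 bp. The cause was not tested. The difference in AP-1 share was -15.3 percentage points over whole sites, which are wider in other sites, and -1.85 with at least 50% masked. Differences in the share near a TSS lay between -19.4 and -7.92 percentage points. The list gives no read depth at any site, so a repeat outside the list may have been below detection.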
